A study of Mus musculus with 15 samples.

Results

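The thalamic libraries of the series were split by the measured level of Maged1, the value the libraries were selected on, into 6 libraries above and 8 libraries below 110 TPM (the abundance of a transcript corrected for its length and scaled to its library), 14 of the 15 samples in all. The high set held the 4 libraries labelled control saline and the 2 labelled cKO cocaine. The low set held the 4 labelled cKO saline and the 4 labelled control cocaine. The series lists 1 further sample labelled cKO cocaine, not analysed here. The mice were 2 to 4 months old. In the mice named Maged1-cKO, Cre is expressed from the Vglut2 (Slc17a6) promoter. It deletes a floxed stretch of exons of Maged1 in glutamatergic Vglut2 neurons and leaves the gene whole in every other cell of the dissected tissue. The study describes the result as a functional knock-out with a truncated protein. How far the TPM of Maged1 counts the remaining exons was not tested. Control animals are named Maged1 WT in the titles and Maged1 Loxp in the genotype tags, so whether they carried the floxed allele is not settled by the labels. A figure legend of the study names its control mice as Maged1-loxP, and its methods describe floxed littermates of the cKO males. The same methods list these RNA samples as Vglut2Cre::Maged1-loxP or WT. All animals were first habituated with saline injections (3 days), and 5 daily injections followed, either cocaine (20 mg/kg) or saline again. RNA from the dissected thalamus, depleted of ribosomal RNA, was sequenced as directional paired-end reads. The tables hold no counts, so the depth behind each value is unknown from them and no counting interval can be given.

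Maged1 encodes a member of the melanoma antigen family, adaptor proteins that bind E3 ubiquitin ligases and related enzymes. The study asked about its relation to the deubiquitinase USP7 and to monoubiquitination of histone H2A, the mark that Polycomb repressive complex 1 writes. The thalamus borders the third ventricle, which is lined by ciliated ependymal cells, and lies above the hypothalamus and below the habenula, so that a dissected thalamus can hold some of each. The midline of the thalamus includes the paraventricular nucleus, a node between hypothalamus, amygdala and accumbens.

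The split rested on Maged1 itself, whose values are therefore a description. Its TPM was 163.5, 188.6, 167.7 and 165.6 in control saline and 144.3 and 140.4 in the cKO-labelled cocaine libraries. The cKO saline libraries had 89.4, 86.8, 83.0 and 69.2 TPM. Control-labelled cocaine libraries had 49.7, 76.7, 62.5 and 61.7 TPM. The library just above the limit had 140.4 TPM and the library just below it 89.4 TPM, with none in between. The labels and Maged1 thus went together after saline and against each other after cocaine, and in 4 saline libraries a genotype tag named the other genotype than the title. No genotype was assigned from these values. Because each labelled group lay on one side of the limit as a whole, high against low is the same contrast as labelled genotype by treatment, and the 2 cannot be told apart. The high and low saline libraries share no sample with the high and low cocaine libraries, so each difference could be read once in each treatment.

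**Figure D1:**
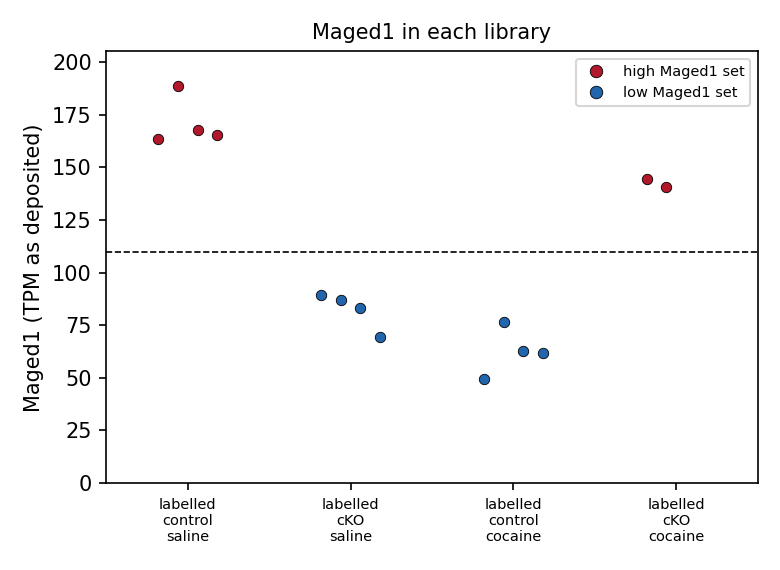
TPM of Maged1 as deposited (y axis) in each of the 14 libraries, by labelled group (x axis). Red points are the high set and blue points the low set, and the dashed line is the limit of 110 TPM, with 140.4 TPM as the lowest red and 89.4 TPM as the highest blue point.

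High and low libraries were compared gene by gene with treatment as a covariate, on log2 of TPM divided by a trimmed-mean scaling factor with 0.5 added. The factors were 0.807 to 0.9385 after cocaine and 1.0678 to 1.216 after saline, so that TPM as deposited are best set side by side within a treatment. The added 0.5 shrinks the differences of weakly expressed genes. Leaving Maged1 out, 13470 genes were tested by limma. A gene was called where its adjusted p-value was under 0.05 and its difference reached 0.5 on the log2 scale in size. By this rule 46 genes were higher in the high set (0.341% of those tested) and 6 were lower (0.0445%). With no minimum on the difference, 136 genes were higher and 140 lower (2.05% in all, 1.01% and 1.04%). The lower genes then moved less, with a median size of 0.23 on the log2 scale against 0.36 for the higher ones, and 134 of the 140 lay below the minimum of 0.5. Over all tested genes 6526 differences were positive and 6944 negative, with a median of -0.0036.

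All 52 called genes had the same sign in saline and in cocaine libraries. The pooled fit that chose them uses both treatments, which favours this. Of all tested genes, 7767 of 13470 had the same sign. In 32 of the 52, 27 higher and 5 lower, high and low libraries overlapped neither after saline nor after cocaine, as did 315 of all tested genes (2.34%). The choice of the 52 on these same values favours such separation too, so nothing is read from its share. Within saline alone, limma called 5 genes higher (0.0371%: Oxt, Radil, Spint2, Vat1 and Wdr6) and 1 lower (0.00742%: Kcna1), and 2255 genes (16.7%) had an unadjusted p under 0.05. Within cocaine, with 2 libraries against 4, limma called 0 genes higher and 3 lower (Nab2, Snora3 and Snora5c, 0.0223%), and 1595 (11.8%) had an unadjusted p under 0.05.

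The count of called genes was not stable. It was 20 higher and 3 lower on TPM as deposited, without scaling, and 12 and 1 among genes with a mean of at least 5 TPM. Leaving out 1 library at a time gave 10 higher and 0 lower without control saline replicate 2, and 135 and 7 without control cocaine replicate 1. The higher count was also more than 1.5 times smaller without cKO cocaine replicate 1 (14), cKO saline replicate 1 (15), control saline replicate 4 (19), control saline replicate 3 (24), cKO saline replicate 2 (26) and control cocaine replicate 3 (26). In the 10 libraries whose title and tag agree, limma called 0 genes in either direction. The 52 genes kept their sign in the fits without 1 library that tested them (11 of the 14 for B3gnt4, Pnp2, Slc17a8 and Sntn), and 9 of them were called in all 14. Among them were Fbln1, Maob, Oxt, Prrg4, Rab3b, Spa17, Thbs2 and Vwa5b1.

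**Figure D2:**
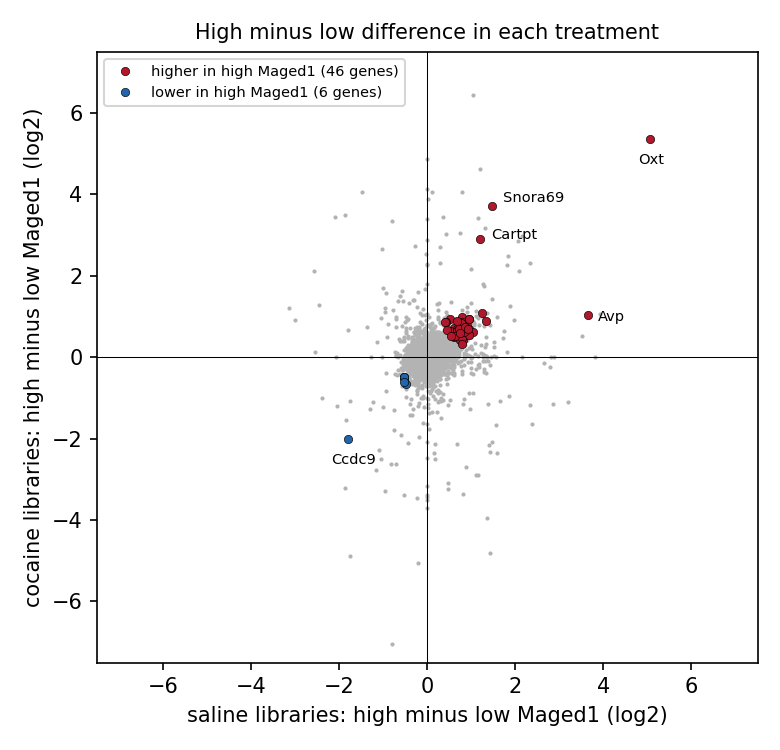
High minus low difference (log2) of each of the 13470 tested genes in the saline libraries (x axis) and in the cocaine libraries (y axis). Grey points are all tested genes, red points the 46 genes called higher and blue points the 6 called lower, and Oxt lies alone at 5.07 and 5.34.

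Oxt stood far above every other called gene. It encodes the precursor of oxytocin, made by magnocellular neurons of the hypothalamus, and lies on chromosome 2 from 130576173 to 130577054 on the plus strand (GRCm38). In control saline its TPM was 108, 203, 204 and 96.0, against 2.71, 2.92, 29.6 and 0.620 in cKO saline. In the libraries labelled cKO cocaine it was 8.27 and 42.6, and of the control-labelled ones 3 listed it at 0 and 1 at 0.188. High and low libraries did not overlap in either treatment, and the lowest high cocaine library was below the highest low saline library. The difference was 5.18 on the log2 scale (standard error 0.58, adjusted p = 0.00135, limma), 5.07 in saline and 5.34 in cocaine, and its adjusted p was at most 0.00656 under the other scalings, pseudocounts and filters, with the replicate block and without any 1 library. In the 10 libraries whose title and tag agree, a fit with fewer saline libraries, Oxt was not called. It was also not called with list levels as covariates. Oxt is itself a member of the neuropeptide list used there, so that outcome was largely built in. The cocaine value depends on the added 0.5, since 3 of its 4 low libraries are at 0.

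The neighbouring gene Avp, for the related hormone vasopressin, lies tail to tail with Oxt on the minus strand, from 130580620 to 130582554, with 3565 bases between the ends of the genes. Its TPM was 74.4, 83.4, 48.8 and 18.0 in control saline and 2.31, 4.45, 13.3 and 0.814 in cKO saline. In the libraries labelled cKO cocaine it was 1.04 and 3.30, and in the control-labelled ones 0.396, 0.412, 1.71 and 0.638. The saline libraries were apart and the cocaine libraries overlapped. The difference was 2.60 (standard error 0.60, adjusted p = 0.0448, limma), and 11 of the 14 fits without 1 library put its adjusted p above 0.05.

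The region just before Oxt is shown because this gene carried the largest difference. The 300 bases are those of RefSeq (GRCm38.p6), 250 before and 50 after the start of the gene at chr2:130575919-130576218, plus strand, with TGACCT and its reverse complement AGGTCA, half-sites of nuclear receptors, in capitals.
Oxt: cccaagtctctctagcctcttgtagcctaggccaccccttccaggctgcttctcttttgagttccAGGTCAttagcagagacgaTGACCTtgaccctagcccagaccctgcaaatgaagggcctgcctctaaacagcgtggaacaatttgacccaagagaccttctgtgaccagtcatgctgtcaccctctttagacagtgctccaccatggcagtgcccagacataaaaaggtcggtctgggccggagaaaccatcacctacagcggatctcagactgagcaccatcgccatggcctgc
The pair of matches began 185 and 166 bases before the start. On either strand, 14.2% of the tested genes with a promoter in the table held this motif, and of the 12 tested neuropeptide genes 4 did (Ghrh, Oxt, Pomc and Trh). Avp had none in its 300 bases. A match of letters does not show that a protein binds there.

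Oxt and Avp belong to a list of 19 hypothalamic neuropeptide genes, of which 12 were tested and 7 were below the filter of 1 TPM in 3 libraries. Of these, 5 were called higher (Avp, Cartpt, Gal, Oxt and Trh) and 0 lower, where 0.341% of all tested genes were called higher. All gene lists were chosen with earlier results of these data known. Nothing is therefore read from this count or from the list counts below. The median difference over the 12 was 0.88 on the log2 scale, against -0.0036 over all tested genes. Without cKO saline replicate 3 the median of the list was 0.47. Trh encodes the precursor of thyrotropin-releasing hormone. Its TPM was 6.79, 8.96, 5.81 and 3.83 in control saline and 3.63, 2.76, 1.77 and 1.17 in cKO saline. After cocaine it was 2.64 and 2.38 in the libraries labelled cKO and 0.636, 0.901, 1.73 and 1.45 in those labelled control. No high library overlapped a low one within a treatment, and the difference was 1.16 (standard error 0.23, adjusted p = 0.0275, limma).

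Gal, for the peptide galanin, and Cartpt, for the cocaine- and amphetamine-regulated transcript peptide, were also called. Gal had 7.24, 8.96, 6.78 and 4.35 TPM in control saline and 4.77, 3.25, 2.53 and 2.95 in cKO saline, which overlap. It had 3.43 and 3.53 TPM in the cKO-labelled cocaine libraries, above the 0.919, 1.59, 1.85 and 2.23 of the control-labelled ones. Its difference was 0.94 (standard error 0.18, adjusted p = 0.0237, limma). Galr1, a galanin receptor that is in no list, rose by 0.65 (standard error 0.12, adjusted p = 0.0202, limma). Cartpt had 28.0 and 28.9 TPM in the cKO-labelled cocaine libraries and 1.99 to 4.78 in the control-labelled ones. After saline one library decided its value, control saline replicate 2 at 57.2 TPM, since the others had 13.8, 6.65 and 7.71 and cKO saline had 6.91, 6.58, 7.47 and 4.16. The pooled difference of 1.88 (standard error 0.44, adjusted p = 0.0455, limma) was 1.59 without that library. For Cartpt, 11 of the 14 fits without 1 library put the adjusted p above 0.05.

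No other tested neuropeptide of the list was called, although 10 of the 12 tested members had positive differences and 2 negative ones. Pmch (melanin-concentrating hormone) and Hcrt (hypocretin), both of the lateral hypothalamus, varied widely within each set. Pmch had 54.1, 117, 15.5 and 19.0 TPM in control saline and 122, 62.0, 0.329 and 4.31 in cKO saline. After cocaine it had 16.3 and 7.88 TPM in the libraries labelled cKO and 0.197, 84.8, 52.3 and 1.80 in those labelled control. Hcrt had 103 TPM in control saline replicate 2 and 0 to 3.95 in the other control saline libraries, with 33.2 TPM at most in cKO saline. The differences were 1.06 for Pmch (standard error 1.28) and -0.90 for Hcrt (standard error 1.34), with adjusted p of 0.712 and 0.775 (limma). Sst had a difference of 0.38, Pomc 0.21 and Npy -0.36, none past the test. Of 15 hypothalamic transcription factors and regulators, 5 were tested, all 5 had positive differences with a median of 0.24, and 0 were called. Leaving out 1 library moved that median between 0.098 (cKO saline replicate 3) and 0.43 (cKO saline replicate 2). Otp, which specifies oxytocin and vasopressin neurons, had a difference of 0.79 (standard error 0.31, adjusted p = 0.189, limma), while Sim1, with the same role, was below the filter.

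**Figure D3:**
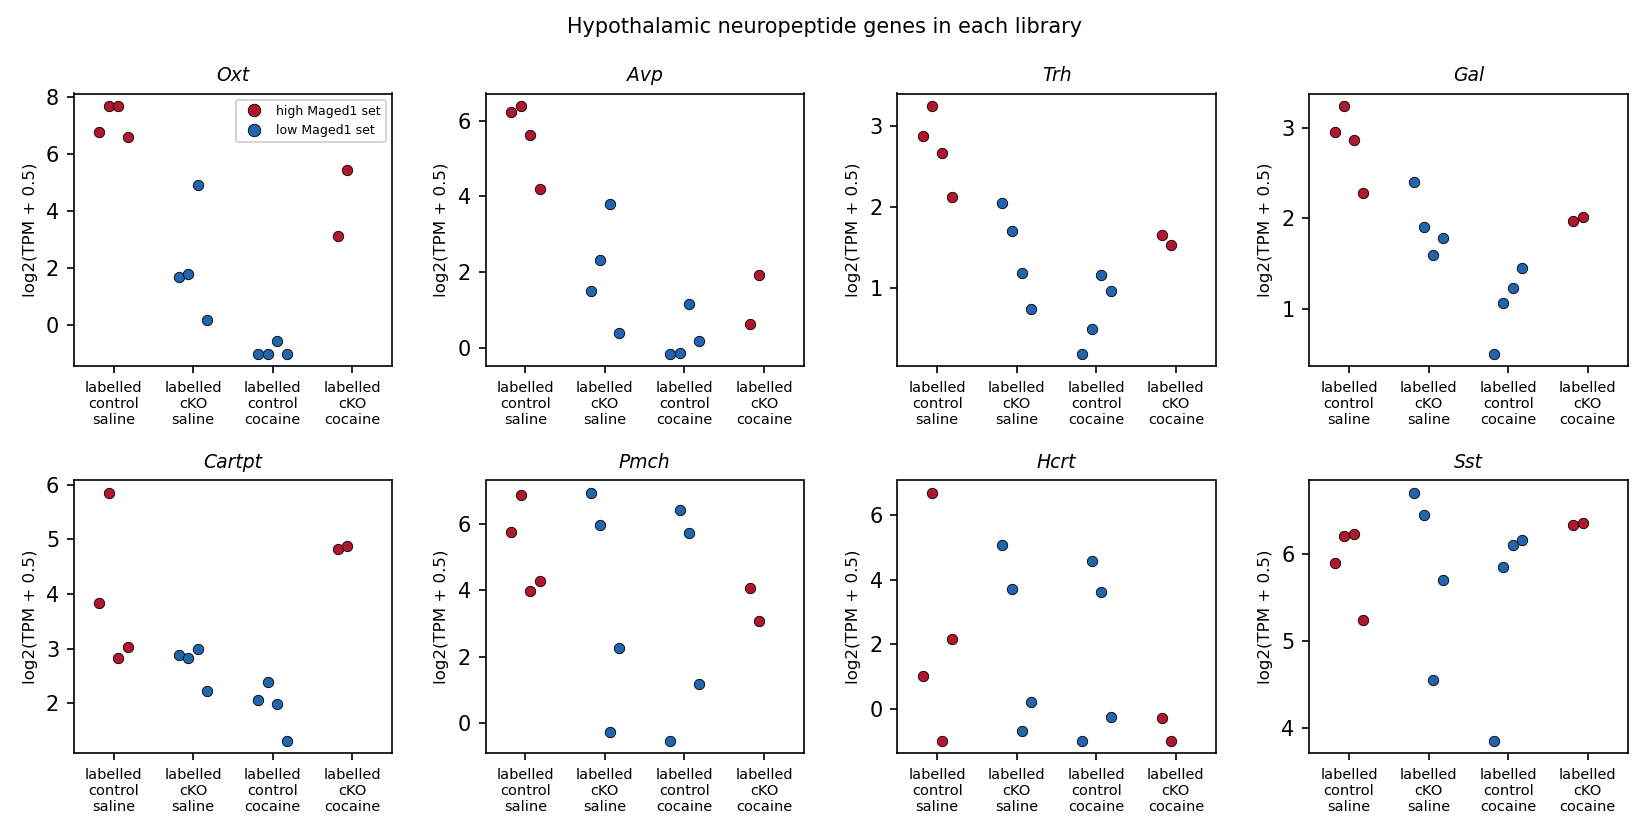
Levels of 8 hypothalamic neuropeptide genes, as log2 of TPM as deposited plus 0.5 (y axis), in each library by labelled group (x axis), with red for the high and blue for the low set. In the Oxt and Trh panels red lies above blue within each treatment, while Pmch, Hcrt and Sst are mixed.

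Genes of motile cilia were the other group with several called members. Motile cilia of the ependyma move cerebrospinal fluid, and their axoneme is built from microtubule doublets, dynein arms, radial spokes and linker proteins. Of 36 listed genes, 28 were tested, 7 were below the filter and Dnai1 was not found under that symbol. All 28 had positive differences, with a median of 0.75 (0.79 in saline, 0.61 in cocaine). Of these, 4 were called higher and 0 lower, against 0.341% of all tested genes. They were Cfap52, which encodes a cilia and flagella protein, Dnah1, a dynein heavy chain, Drc1, of the nexin-dynein regulatory complex, and Spag16, of the central pair. Cfap52, Dnah1 and Spag16 reached the filter of 1 TPM only in libraries of the high set. A filter passed in that way favours calls on the higher side, so nothing is read from this count.

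Spag16 had 1.17, 1.16, 1.16 and 1.03 TPM in control saline and 0.0782, 0.583, 0.450 and 0.575 in cKO saline. It had 1.07 and 0.673 TPM in the cKO-labelled cocaine libraries and 0.672, 0.489, 0.218 and 0.0780 in the control-labelled ones. High and low libraries did not overlap within a treatment once scaled, with a difference of 0.80 (standard error 0.18, adjusted p = 0.0448, limma). Cfap52 also did not overlap, at 1.15 to 1.77 TPM in control saline against 0.0760 to 0.564 in cKO saline, and its difference was 0.87 (standard error 0.18, adjusted p = 0.0364, limma). Drc1 had 2.39 to 2.94 TPM in control saline and 1.01 to 2.08 TPM in cKO saline, but its cocaine libraries overlapped, with 3.36 and 1.89 against 1.02 to 2.15. Its difference was 0.62 (standard error 0.14, adjusted p = 0.0452, limma). Dnah1 had a difference of 0.66 (standard error 0.15, adjusted p = 0.0448, limma).

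Members at higher levels missed the test although their differences were as large. Foxj1, the transcription factor that switches on motile cilia genes, had 8.88, 8.33, 7.67 and 7.34 TPM in control saline and 2.73, 5.39, 4.40 and 5.83 in cKO saline. After cocaine it had 7.75 and 4.81 TPM in the libraries labelled cKO and 5.80, 4.14, 4.17 and 2.08 in those labelled control, so these overlapped. Its difference was 0.73 (standard error 0.20, adjusted p = 0.0709, limma). Tmem212, an ependymal marker, had the largest difference of the list at 1.45, with a standard error of 0.48 and an adjusted p of 0.126 (limma), and its low libraries ran from 0.127 to 5.48 TPM. The adjusted p of Cfap52, Dnah1, Drc1 and Spag16 was above 0.05 in 9, 11, 12 and 12 of the 14 fits without 1 library.

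Called genes outside the list include further genes known from cilia or flagella. These were Dnaaf3 (dynein arm assembly), Kif9 (a kinesin of the central pair), Odf3b, Spa17, Sntn, Ubxn10 and Ttll3 (a tubulin glycylase). They were grouped after their values were seen, so nothing is read from their number. Spa17, the sperm autoantigenic protein found in cilia, had 1.90, 2.39, 2.00 and 1.88 TPM in control saline and 1.11, 0.970, 1.66 and 0.835 in cKO saline. Its cocaine values were 3.65 and 2.08 TPM in the libraries labelled cKO and 1.53, 1.17, 1.1 and 1.27 in those labelled control. The libraries were apart in both treatments, and the difference was 0.76 (standard error 0.11, adjusted p = 0.0100, limma). Tppp3, a tubulin polymerization-promoting protein listed here among oligodendrocyte genes, had the smallest adjusted p of all tested genes. It had 44.0, 46.8, 46.1 and 45.1 TPM in control saline against 31.7, 35.3, 38.2 and 34.5 in cKO saline. In the libraries labelled cKO cocaine it had 42.9 and 33.2 TPM, against 25.5 to 27.8 in the control-labelled ones. The difference of 0.44 (standard error 0.04, adjusted p = 0.000903, limma) lay below the minimum of 0.5, so Tppp3 was not called.

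The promoters of ciliary genes often hold the X-box, the site of RFX factors, whose half-site is GTTGCC. The promoters of 3 called genes with that motif, chosen after their values were seen, are shown, as RefSeq gives them for GRCm38.p6 on the plus strand, at chr5:30281143-30281442 for Drc1, chr1:69826720-69827019 for Spag16 and chr14:13670626-13670925 for Sntn. Capitals mark GTTGCC or its reverse complement GGCAAC.
Drc1: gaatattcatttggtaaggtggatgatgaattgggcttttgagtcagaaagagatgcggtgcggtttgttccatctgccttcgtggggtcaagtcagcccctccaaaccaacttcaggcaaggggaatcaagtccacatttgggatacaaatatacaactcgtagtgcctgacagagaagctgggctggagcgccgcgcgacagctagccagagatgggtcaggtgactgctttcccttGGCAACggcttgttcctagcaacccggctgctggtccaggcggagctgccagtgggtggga
Spag16: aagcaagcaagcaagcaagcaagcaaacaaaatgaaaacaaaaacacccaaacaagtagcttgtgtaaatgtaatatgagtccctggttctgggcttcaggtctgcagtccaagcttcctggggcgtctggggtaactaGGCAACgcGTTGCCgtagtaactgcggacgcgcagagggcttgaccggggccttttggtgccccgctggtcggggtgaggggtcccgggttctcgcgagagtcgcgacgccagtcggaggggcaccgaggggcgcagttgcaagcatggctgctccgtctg
Sntn: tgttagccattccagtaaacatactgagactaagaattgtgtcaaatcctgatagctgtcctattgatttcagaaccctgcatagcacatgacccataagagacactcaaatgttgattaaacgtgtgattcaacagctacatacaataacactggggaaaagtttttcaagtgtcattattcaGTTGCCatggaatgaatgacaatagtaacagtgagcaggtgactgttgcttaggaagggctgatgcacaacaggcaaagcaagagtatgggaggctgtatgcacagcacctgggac
The match began 11 bases before the start of Drc1, 66 before Sntn, and 111 and 103 before Spag16. On either strand, the half-site was in 10 of the 23 tested members of the cilium list that had a promoter in the table (43.5%), in 11 of 37 genes called higher (29.7%) and in 15.1% of all tested genes with one. It was in 0 of the 12 tested neuropeptide genes. The full palindromic X-box was in 1 of the 23 (Ccdc153), in 0 of the 37 and in 1.02% of tested genes. The genes called higher were chosen on these same data and share Drc1 and Spag16 with the cilium list. Sntn was tested in 11 of the 14 fits without 1 library, so it passed the filter narrowly. Nothing is read from these shares.

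The level of the whole cilium list shows which libraries carry this difference. Expressed as the mean of its 28 tested members relative to all libraries (log2), it was 0.44, 0.51, 0.40 and 0.42 in control saline and -1.12, -0.07, -0.26 and -0.04 in cKO saline. It was 0.54 and 0.20 in the cKO-labelled cocaine libraries and 0.40, -0.12, -0.20 and -1.11 in the control-labelled ones. The high libraries were close to each other, while cKO saline replicate 1 and control cocaine replicate 4 were far below the other low libraries and control cocaine replicate 1 lay inside the high range. Summed TPM of the listed members was 95.4 to 106 in control saline, 20.9 to 66.6 in cKO saline, 16.6 to 73.6 in the control-labelled cocaine libraries and 58.2 and 94.0 in the cKO-labelled ones. Without the 2 low libraries just named, a fit added after seeing the data, 17 genes were called higher and 1 lower, and the median of the cilium list was 0.47. With the levels of the cilium and the neuropeptide list, which hold several of the called genes, as covariates, limma called 0 genes in either direction. In dissected tissue, fewer cells of a type and less RNA per cell cannot be told apart.

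**Figure D4:**
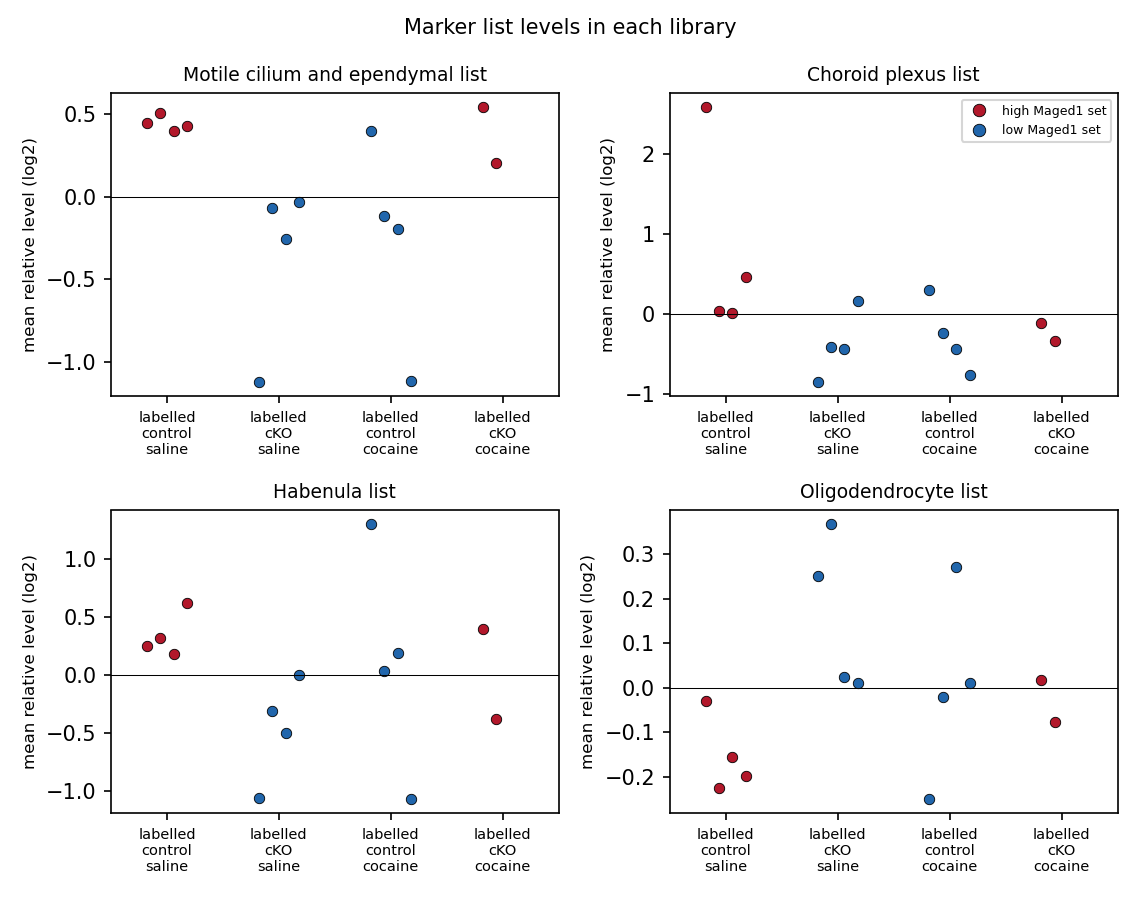
Mean relative level (log2, y axis) of 4 marker lists in each library by labelled group (x axis), with red for the high and blue for the low set. The cilium list is tight in control saline (0.40 to 0.51) and lowest in cKO saline replicate 1 and control cocaine replicate 4, and the choroid plexus list stands out in control saline replicate 1 at 2.58.

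Markers of other tissue near the thalamus did not all move with the split. Of 15 choroid plexus genes, 7 were tested, all 7 were positive with a median of 0.66, and 0 were called. This median was 1.29 in saline and 0.00 in cocaine, and the pooled one was 0.29 without control saline replicate 1. Ttr, the transthyretin that marks choroid plexus, had 1508 TPM in control saline replicate 1 and 1.77 to 55.9 TPM in every other library. Kl, Folr1 and Kcne2 were below the filter. All 18 habenula genes were tested and 0 were called, 16 of them positive. Their median was 0.95 in saline and -0.09 in cocaine, and the pooled median of 0.43 was 0.22 without cKO saline replicate 1, 0.72 without cKO cocaine replicate 2 and 0.65 without control cocaine replicate 1. Gpr151, a receptor of habenular neurons, was highest in a low library, control cocaine replicate 1, at 28.3 TPM. The 17 genes of thalamic identity had a median of -0.05 with 0 called. Tcf7l2, a transcription factor that marks the thalamus, was present in every library at 73.7 to 122 TPM. Slc17a6, the gene that drives Cre, had 59.5 to 120 TPM and a difference of 0.10 (standard error 0.10, adjusted p = 0.627, limma). The part of these tissues in the differences was not tested.

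Of 16 genes of the midline and paraventricular thalamus, 13 were tested, with a median of 0.30 and 2 called higher (0.341% of all tested genes were), Calb2 and Gal, the latter also counted above. Calb2, for the calcium-binding protein calretinin, had 128, 153, 147 and 137 TPM in control saline and 51.5, 74.2, 126 and 67.6 in cKO saline. Its cocaine values were 120 and 104 TPM in the libraries labelled cKO and 94.3, 65.3, 53.6 and 62.3 in those labelled control. The libraries were apart in each treatment, by a difference of 0.85 (standard error 0.16, adjusted p = 0.0237, limma). Oprk1, the kappa opioid receptor, passed the adjusted p at a smaller difference of 0.38 (standard error 0.08, adjusted p = 0.0369, limma). Of the dopamine receptors in the list, Drd2 had a difference of -0.15 (standard error 0.11, adjusted p = 0.499, limma) and Drd3 was below the filter.

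Genes in no list were also among the largest separated rises. Rab3b, a vesicle GTPase, had 3.66, 5.95, 4.72 and 4.00 TPM in control saline and 2.11, 1.97, 3.8 and 1.31 in cKO saline. In the libraries labelled cKO cocaine it had 4.66 and 3.36 TPM, above the 1.35 to 2.63 of the control-labelled ones, and its difference was 0.94 (standard error 0.16, adjusted p = 0.0172, limma). High and low libraries were apart in each treatment once scaled.

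Rises of 0.54 to 0.84, separated in each treatment once scaled, were also seen for Fbln1, Thbs2, Vwa5b1, Gpx3 and Odf3b. Fbln1, for the matrix protein fibulin 1, had 7.40, 9.85, 10.7 and 9.09 TPM in control saline and 3.72, 4.74, 8.0 and 5.50 in cKO saline. The cocaine values were 9.22 and 8.07 TPM in the libraries labelled cKO and 3.87 to 6.01 in those labelled control, for a difference of 0.80 (standard error 0.13, adjusted p = 0.0161, limma). Thbs2, for thrombospondin 2, an astrocyte-secreted matrix protein, rose by 0.54 (standard error 0.07, adjusted p = 0.00655, limma), with 1.64 to 1.90 TPM in control saline and 1.04 to 1.53 TPM in cKO saline. Vwa5b1 rose by 0.83 (standard error 0.14) and Gpx3, the secreted glutathione peroxidase, by 0.84 (standard error 0.18), with adjusted p of 0.0180 and 0.0373 (limma). Gpx3 had 10.5 to 18.9 TPM in control saline and 4.04 to 9.53 TPM in cKO saline. Odf3b rose by 0.79 (standard error 0.19, adjusted p = 0.0456, limma). The adjusted p of Gpx3 and Odf3b was above 0.05 in 10 and 11 of the 14 fits without 1 library.

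By smallest adjusted p, Prag1 and Celf4 followed Tppp3 at differences below 0.5. Prag1, for the pseudokinase pragmin, differed by 0.45 (standard error 0.05, adjusted p = 0.00135, limma). It had 7.71 to 9.79 TPM in control saline and 6.11 to 7.23 TPM in cKO saline, and 8.82 and 8.19 TPM against 5.64 to 6.26 in the cocaine libraries. Celf4, a neuronal RNA-binding protein, differed by 0.39 (standard error 0.04, adjusted p = 0.00135, limma). Its TPM was 75.5 to 102 in control saline, 67.0 to 73.4 in cKO saline, 79.8 and 70.8 in the cKO-labelled cocaine libraries and 53.0 to 59.6 in the control-labelled ones.

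Few genes were lower in the high set by the minimum difference. Wnt9b, a WNT ligand, had 4.10, 2.77, 4.21 and 4.20 TPM in control saline and 5.94, 6.16, 6.20 and 4.78 in cKO saline. In the libraries labelled cKO cocaine it had 2.47 and 3.67 TPM, against 4.51 to 5.37 in the control-labelled ones, and the difference was -0.56 (standard error 0.11, adjusted p = 0.0313, limma). Cnih3, an auxiliary subunit of AMPA receptors, had 8.91 to 12.6 TPM in control saline and 15.1 to 16.9 TPM in cKO saline. After cocaine it had 8.49 and 9.48 TPM against 10.9 to 15.4, for a difference of -0.53 (standard error 0.10, adjusted p = 0.0237, limma). Adgrf5, an adhesion receptor of endothelium, had 4.79 to 6.19 TPM in control saline and 6.76 to 9.64 TPM in cKO saline, and differed by -0.51 (standard error 0.08, adjusted p = 0.0144, limma). Zfp991 and Gm13238, both on chromosome 4, differed by -0.56 and -0.52, at about 1 TPM. Their adjusted p was above 0.05 in 9 and 8 of the 14 fits without 1 library. Ccdc9 had a difference of -1.89 (standard error 0.44, adjusted p = 0.0457, limma), but its libraries overlapped in each treatment, with 0 to 0.813 TPM in control saline and 0.303 to 4.89 TPM in cKO saline.

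The 5 lower genes of smallest adjusted p had differences between -0.33 and -0.20. Gria3, an AMPA receptor subunit, had 17.7, 16.0, 18.3 and 16.7 TPM in control saline and 26.4, 22.9, 24.7 and 21.2 in cKO saline. In the libraries labelled cKO cocaine it had 13.5 and 12.3 TPM, against 13.7 to 15.7 in the control-labelled ones, and the difference was -0.33 (standard error 0.05, adjusted p = 0.0127, limma). Cadm2, a synaptic adhesion molecule, and Plppr5, a membrane protein of neurite growth, each differed by -0.30, with adjusted p of 0.0127 and 0.0112 (limma). Acap2 and Eps15, which act in endocytic traffic, differed by -0.21 and -0.20, with adjusted p of 0.0112 and 0.0127 (limma). In the glutamate receptor list, Gria3 and Gria4 passed the adjusted p out of 22 tested members, both lower, where 1.04% of all tested genes passed lower, and 0 were called. Gabrb2, a GABA receptor subunit, was the member of its list of 18 that passed, again with 0 called.

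Oligodendrocyte genes had small differences on the low side. All 23 were tested, 20 had negative differences, the median was -0.27 (-0.42 in saline and -0.06 in cocaine) and 0 were called in either direction. Mbp, for myelin basic protein, had 914, 839, 860 and 816 TPM in control saline and 1345, 1396, 1091 and 964 in cKO saline. The cocaine libraries had 973 and 864 TPM in the libraries labelled cKO, inside the 696 to 1039 of those labelled control. Genes of blood were also on the low side, 6 of 6 tested, with a median of -0.31 and 0 called. Summed TPM of the blood list was 227 to 416 in control saline, 242 to 495 in cKO saline, 214 to 388 in the control-labelled cocaine libraries and 213 and 256 in the cKO-labelled ones.

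The genes closest to Maged1 in function or position showed little. Its 7 listed relatives of the MAGE family were all tested and all positive, with a median of 0.11 and 0 called. Among 8 tested interaction partners 0 were called. Usp7 had 19.7, 21.7, 22.8 and 21.3 TPM in control saline and 23.7, 23.0, 24.0 and 21.0 in cKO saline, with a difference of -0.04 (standard error 0.03, adjusted p = 0.430, limma). Of 11 H2A deubiquitinases and cofactors and of 19 tested PRC1 subunits, 0 were called or passed the adjusted p. Of 11 tested PRC2 subunits, Ezh2, the methyltransferase of the complex, passed the adjusted p at a difference of -0.22 (standard error 0.05, adjusted p = 0.0466, limma) and 0 were called. Within 10 Mb of Maged1 on chromosome X, 64 genes were tested and 0 called, with Il1rapl1 past the adjusted p (1.56% of the 64, against 2.05% of all tested genes). Within 10 Mb of Slc17a6 on chromosome 7, 129 were tested and 0 called, with 3 past the adjusted p (2.33%).

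**Figure D5:**
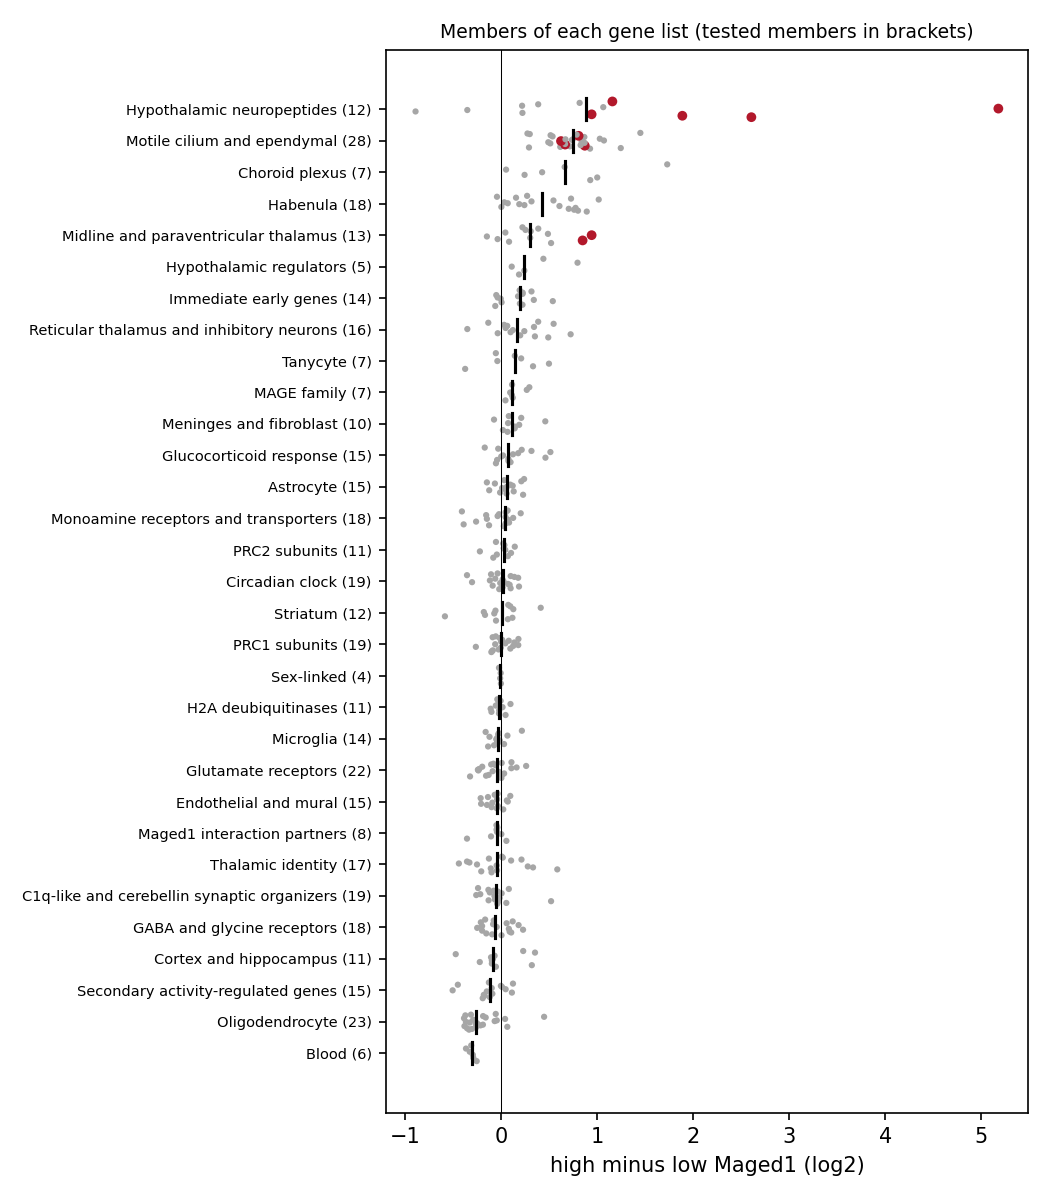
High minus low difference (log2, x axis) of each tested member of the 31 gene lists (rows, with the number tested in brackets), sorted by median. Red points are called genes, grey points are not called, and black bars are medians, highest for hypothalamic neuropeptides (0.88) and motile cilium genes (0.75), in the reverse order without cKO saline replicate 3, and lowest for blood (-0.31).

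The remaining lists held no called gene. Immediate early genes had a median of 0.19 over 14 tested and activity-regulated genes of the second wave -0.12 over 15. Inhibitory neurons and the reticular thalamus had 0.16 over 16, which was 0.015 without control cocaine replicate 1 and 0.37 without cKO saline replicate 2. The median was 0.07 over 15 genes of the glucocorticoid response, 0.01 over 19 of the circadian clock and 0.03 over 18 monoamine receptors and transporters. The median was 0.05 over 15 astrocyte genes, among which Slc1a3 passed the adjusted p at 0.21. Over 10 meningeal genes it was 0.11, and -0.009 without control saline replicate 1. Over 7 tanycyte genes it was 0.14, and -0.021 without control saline replicate 1, and of these Dio2, the deiodinase that activates thyroid hormone, passed the adjusted p at -0.38. The medians of the microglial (14 genes), endothelial and mural (15), striatal (12), cortical and hippocampal (11), synaptic organizer (19) and sex-linked (4) lists lay between -0.09 and 0.00. Members past the adjusted p but not called were also Hlf of the clock list (-0.31), Rgs4 of the second wave (-0.45), Lrrtm2 of the synaptic organizers (-0.22), Rasd2 of the striatal list (0.41), Sox2 of thalamic identity (0.21) and Tspan2 of the oligodendrocyte list (-0.38), where 2.05% of all tested genes passed.

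Whether the high minus low difference itself differed between saline and cocaine was tested in a model of the 4 labelled groups. Limma called 0 of 13470 genes, and 1107 had an unadjusted p under 0.05 (8.22%). The smallest adjusted p-values belonged to Snora5c, Dpcd, Snora3, Hint3 and Psmd10, at 0.0779, 0.122, 0.172, 0.365 and 0.365 (limma). Snora5c, a small nucleolar RNA, had 21.0, 50.6, 129 and 71.5 TPM in the control-labelled cocaine libraries and was listed at 0 in both labelled cKO cocaine. In saline it had 0 to 1.05 TPM in control and 0.398 to 3.49 in cKO. Snora3, at 0 TPM in each cKO-labelled cocaine library, had 9.98 to 18.5 TPM in the control-labelled ones. Snora69 was called in the pooled comparison and was listed at 0 in all 4 libraries labelled control cocaine, so its fitted difference of 2.36 depends on the added 0.5. Small nucleolar RNAs are short and many lie within introns of other genes. For Avp, whose differences were 3.64 in saline and 1.04 in cocaine, the adjusted p of the difference between treatments was 0.574 (limma).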

How the data were processed

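The authors mapped paired-end reads to GRCm38.p4 (mm10) with STAR 2.5.3a, quantified transcripts with Salmon and summarized them per gene with tximport, per the methods of the study. They deposited 1 table of TPM per library (25080 gene symbols). In 2 deposited tables, recorded as an other unit, the TPM have decimal commas, read here as points. TPM keep no depth, so precision rests on replicates alone. No sign of pairing by the numbers in the titles was seen (mean correlation of deviations -0.0138 over 18 same-numbered pairs, 0.00458 over 54 others). Such a mean cannot exclude pairing. The methods of the study call the samples independent.

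Here, TPM were divided by trimmed-mean factors (unweighted TMM, trimming 30% of ratios and 5% of means), 0.5 was added and log2 taken. Genes with at least 1 TPM in 3 libraries were tested in limma 3.58.1 (R 4.3.3) with an intensity trend, two-sided, with Benjamini-Hochberg adjustment over all tested genes. The set fit had treatment as covariate. Single treatments and their difference came from a means model. Members, lists and tests were chosen with earlier results of these data known. Named genes were the 10 largest separated rises and falls (5 falls existed), the 5 smallest adjusted p-values each way, called or leading list members, and the 5 smallest for the difference between treatments. Others named were chosen after their values were seen. A gene that the rule named is not reported here. On simulated data, 189 of 197 genes changed by log2 1 were recovered (95.9%) with 3 false calls among 13317. The simulated noise was drawn for each gene on its own, whereas genes of a list vary together across these libraries. The number of false calls therefore does not carry over to the data. Coordinates are from GENCODE M21 (97.9% of tested symbols matched), promoters from RefSeq. Alternatives were other scalings, pseudocounts, filters and models, a replicate block, tag-concordant libraries, list covariates, and each library left out. Figures used Python 3.11.15 and matplotlib 3.10.9.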

Additional observations from a re-analysis of the deposited data

Results flagged for a closer look

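Among 36 named genes and 9 list levels, each examined in the 3 labelled groups of 4 libraries (135 groups), 5 held a library far from the other 3, by a gap, as a share of the group's range on the scaled log2 values, beyond the critical value of Dixon's test, where about 6.8 are expected by chance at 1 in 20. Cartpt in cKO saline replicate 4 (4.16 TPM against 6.58 to 7.47, gap 0.873 of the range) was the lowest. Gria3 was highest in cKO saline replicate 1 (26.4 TPM against 21.2 to 24.7, gap 0.832). Oxt was above 0 in control cocaine replicate 3 alone of its group (0.188 TPM, gap 1 of the range). Psmd10 was highest in control cocaine replicate 3 (5.77 TPM as deposited against 5.56 to 5.73, gap 0.972). Wnt9b was lowest in control saline replicate 2 (2.77 TPM against 4.10 to 4.21, gap 0.951).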

How the results depend on the processing

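The 52 called genes kept their sign in each fit without 1 library that tested them. They also kept it under the other scalings, pseudocounts and filters that tested them and with the replicate block. Their signs in the remaining fits were not recorded. The number of called genes did not hold. The higher and lower counts (46 and 6) were 20 and 3 without scaling, 12 and 1 at a mean of at least 5 TPM, 136 and 140 with no minimum difference, 19 and 2 without the treatment covariate, and 0 and 0 both in the tag-concordant libraries and with list levels as covariates. The lower count was 3 with a pseudocount of 1 and the higher count 30 in the means model. Without control cocaine replicate 4 and cKO saline replicate 1, chosen after seeing the data, they were 17 and 1. The replicate block, set by the numbers in the titles, gave 8 and 0, within saline 0 lower and within cocaine 1 lower. Within saline (5 and 1) they were 0 and 0 without scaling, 22 and 4 with quantile normalization, 9 and 4 at a mean of at least 5 TPM, 14 and 9 with no minimum, 0 lower without an intensity trend and 9 higher fitted alone. Within cocaine (0 and 3) the higher count was 1 with a pseudocount of 0.1 or 1 and with no minimum, and 2 without a trend, they were 9 and 6 with no filter, and 1 was lower fitted alone. For the difference between treatments (0 and 0), 1 was higher with a pseudocount of 0.1, and 1 higher and 2 lower with no filter. Leaving out 1 library gave 10 to 135 higher and 0 to 9 lower in the pooled comparison, 2 to 20 and 0 to 2 within saline, 0 to 3 and 0 to 6 within cocaine, and 0 to 5 and 0 to 1 for the difference. The causes were not tested.

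With list levels as covariates the list medians moved to -0.036 (MAGE family), 0.015 (H2A deubiquitinases), -0.016 (PRC2), 0.030 (cilium), -0.083 (tanycyte), -0.42 (habenula), 0.19 (thalamic identity), 0.12 (cortex), -0.64 (blood), -0.047 (second-wave activity), 0.23 (glucocorticoid), 0.12 (clock), 0.040 (GABA) and -0.24 (monoamine), and to 0.31 (neuropeptides), 0.14 (choroid plexus), -0.24 (hypothalamic regulators) and -0.26 (reticular and inhibitory). The covariates were the levels of the cilium and neuropeptide lists themselves. The medians of these lists were thus bound to fall, and nothing is read from that. The tanycyte median ran from -0.021 to 0.21 without 1 library, and PRC2 was -0.0067 without the 2 libraries lowest in cilium genes. For named genes, 601 alternative values stayed on the same side of an adjusted p of 0.05 as the main fit. Another 165 lost an adjusted p under 0.05 and 10 gained one. The minimum difference was not part of this count, and some of these genes, such as Tppp3, were not called in the main fit.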
